A study of Mus musculus with 5 samples.

Results

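The genes described here encode the enzymes and regulators that build fatty acids, sebum lipids and cholesterol, and they were followed in the dorsal skin of *Clock* mutant and wild-type mice. A list of 37 genes was divided into 13 fatty acid genes, 9 sebaceous lipid genes and 15 sterol genes, and each gene was read from its brightest probe set that carried this gene symbol alone. Of the 37 genes, 35 had such a probe set, out of 18193 genes on the array, and all 35 passed the filter on dim probe sets. *Awat1* and *Soat1*, both on the sebaceous list, were not analysed here. The genes were listed by function, with earlier results of these data known, and the rule itself used no difference between the groups.

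The samples were 2 *Clock* mutant mice and 3 wild-type littermates, each hybridised to 1 Affymetrix mouse array. All 5 mice were taken at postnatal day 23 (P23), and the labels name no treatment. The study groups P23 *Clock* mutant skin under telogen, when hair follicles rest, but counts P23 as early anagen in its wild-type time course. The male among the 5 mice was *Clock* mutant replicate 1, and 4 were female. The labels do not give the number of mutant alleles or the hour of collection for these mice. The mutant allele carries a single base change through which the *Clock* message is spliced differently; CLOCK is a transcription factor that pairs with BMAL1. The allele is present in the germline and so is carried by every cell of the body, so that skin and the organs that supply it are mutant alike. A probe set for *Clock* need not read such an allele. The brightest had a log2 difference of -0.05, and the others had 0.04, 0.25 and -0.53. On the last of these, intensities were 120.8 and 154.7 in the mutants and 180.9 to 224.4 in the wild types. The clock output gene *Per3* checked the genotype labels, with intensities of 196.2 and 247.1 in the mutants and 591.4 to 814.9 in the wild types (log2 difference -1.64, adjusted p = 0.0144 by limma). *Dbp*, another output gene, had a log2 difference of -1.32 (adjusted p = 0.115 by limma). Of the 7 clock genes listed, *Per2*, *Ciart* and *Tef* were also lower in both mutants than in every wild type, whereas *Nr1d1*, a target of CLOCK, was higher, with intensities of 466.7 and 428.0 in the mutants and 259.0 to 308.4 in the wild types (log2 difference 0.65, adjusted p = 0.200 by limma).

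Skin makes lipid in several places. Sebocytes fill with triglycerides, wax esters and sterol esters and burst to release them as sebum, keratinocytes make the ceramides, fatty acids and cholesterol of the water barrier, and the fat layer under the dermis stores triglyceride. Fatty acid synthesis starts from acetyl-CoA through *Acly*, *Acaca* and *Fasn* and continues through elongases and desaturases, while sterol synthesis runs through mevalonate and squalene to cholesterol, and the SREBP factors switch on both pathways when sterols are low. The sebocyte genes *Scd3*, *Elovl3*, *Krt79*, *Far2* and *Plin2* had intensities of 1115 or more on every array, whereas *Mc5r* was dim, at 90.6 to 156.1. The fat cell gene *Adipoq* had 11275 to 13656, and *Lep*, another, was dim at 45.4 to 142.5. In whole skin, fewer cells of a type and less RNA per cell cannot be told apart.

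The lipid genes differed little between *Clock* mutant and wild-type skin, and none of the 35 passed the adjusted threshold. There were 6 at an unadjusted p under 0.05, each with a higher mean in the mutants: *Sc5d*, *Sqle*, *Nsdhl* and *Dhcr7* of the late sterol pathway, and *Elovl6* and *Srebf1* of the fatty acid genes. *Sc5d*, the lathosterol oxidase that makes the substrate of the last enzyme of the pathway, had the largest difference of the 35, at 1.52-fold. Sterol genes and fatty acid genes had medians slightly above 0, and sebaceous lipid genes had a median slightly below 0.

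Values below are MAS5 intensities, which are linear and scaled alike on each array, or log2 differences, *Clock* mutant minus wild type, with the standard error (SE) from limma. A *p* adjusted by Benjamini-Hochberg over all 27022 tested probe sets was held to a threshold of 0.05. Of the 35 genes, 0 passed it by limma and 0 by a test in the style of Cyber-T, while 0.116% of the 12955 genes tested passed by limma. At an unadjusted p under 0.05 there were 6 of 35, all higher in the mutants, by limma and 3 by the test in the style of Cyber-T, beside 10.0% of all genes by limma (5.24% higher and 4.78% lower). That all were higher did not hold under every setting: with the mean of probe sets, and again without *Clock* mutant replicate 2, there were 5 higher and 4 lower. The mutant and wild-type arrays did not overlap for 9 of 35 genes, 7 higher and 2 lower, beside 27.9% of all genes (15.7% higher and 12.3% lower). A positive difference was seen for 21 of 35 genes and for 53.6% of all genes, and the median difference was 0.05 over the 35 genes and 0.02 over all genes. Centring the arrays on their medians instead of keeping the deposited scaling gave 29 positive genes of 35. It also moved the median of all tested probe sets from -0.017 to 0.071. Quantile normalization gave 22 positive genes and the mean of probe sets 16. The count of signs thus rests on the centring and on the choice of probe set. The 95% confidence interval of a member's log2 difference reached 0.23 to each side at the median and 0.15 to 0.59 over the members. The 2 mutant arrays limit the precision of every comparison.

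**Figure D1:**
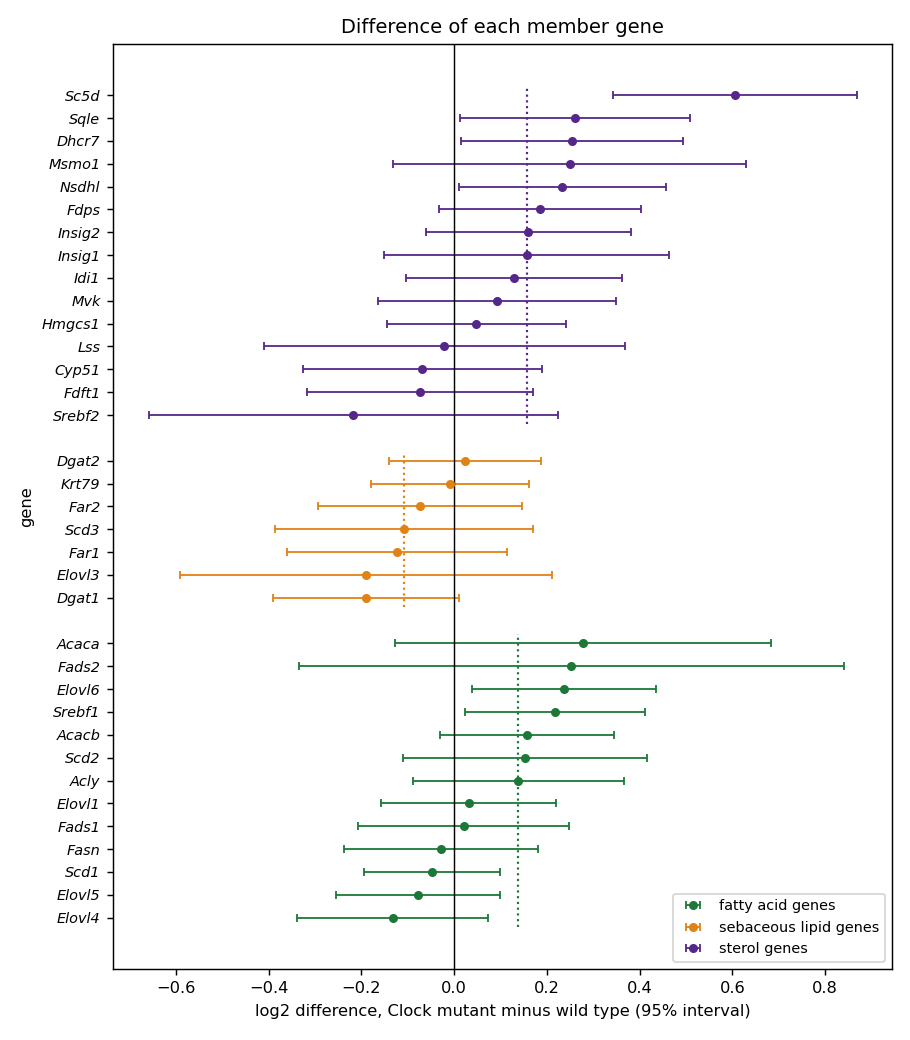
Log2 difference, *Clock* mutant (2 arrays) minus wild type (3 arrays), of each of the 35 genes by its brightest probe set, with fatty acid, sebaceous lipid and sterol genes apart; points are limma estimates and bars are 95% confidence intervals. *Sc5d* sits at 0.61, while the other 34 genes lie between -0.22 and 0.28.

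The sterol genes held the largest difference of the members and 4 of the 6 at an unadjusted p under 0.05. Of 15 sterol genes, 11 had a positive difference and 4 a negative one, with a median of 0.16. Relative to the wild-type mean of each gene, the median of the 15 genes was 0.10 and 0.17 in the mutants and 0.15, -0.10 and -0.04 in wild-type replicates 1, 2 and 3, so that the groups overlapped. Of these members, the 7 enzymes that follow squalene had a median of 0.25. They held all 4 sterol genes at an unadjusted p under 0.05, beside 5.24% of all genes that were higher at that level. The 5 member enzymes up to squalene had a median of 0.09 and the 3 regulators a median of 0.16, with 0 genes at that level in either. The members were chosen with earlier results known, and the other sterol pathway genes were not placed in these steps. The difference between these steps was not tested.

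*Sc5d* had intensities of 1878 and 1714 in *Clock* mutant replicates 1 and 2 and of 1037, 1315 and 1201 in wild-type replicates 1, 2 and 3. Both mutants were above every wild type, and the gap between the groups was wider than the range within either. The log2 difference was 0.61 (SE 0.116, 95% interval 0.34 to 0.87, unadjusted p = 0.000553, adjusted p = 0.153 by limma). Mean intensities were 1796 ± 116 (SD, n = 2) in the mutants and 1185 ± 140 (SD, n = 3) in the wild types. Without the male *Clock* mutant replicate 1 the log2 difference was 0.54. The other probe sets of *Sc5d* did not show a change of this size: the second brightest had intensities of 478.3 and 487.1 in the mutants and 386.7, 443.6 and 478.8 in the wild types, a log2 difference of 0.15, and the dimmest had -0.14. Averaging the 3 probe sets lowered the difference of *Sc5d* to 0.21 (adjusted p = 0.588 by limma).

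*Dhcr7* encodes the reductase that takes the product of SC5D to cholesterol. Its intensities were 2987 and 3709 in the mutants and 2992, 2679 and 2711 in wild-type replicates 1, 2 and 3. *Clock* mutant replicate 2 stood above the rest, and mutant replicate 1 lay just under wild-type replicate 1, so the groups overlapped. Its log2 difference was 0.25 (SE 0.106, unadjusted p = 0.0401, adjusted p = 0.444 by limma), and leaving out *Clock* mutant replicate 2 took it to 0.10.

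*Nsdhl*, a dehydrogenase that helps to strip methyl groups from the sterol ring, had intensities of 1326 and 1227 in the mutants and 1129, 1016 and 1114 in the wild types. All wild types were below both mutants. Its log2 difference was 0.23 (SE 0.0987, unadjusted p = 0.0421, adjusted p = 0.450 by limma). *Msmo1*, which acts in the same removal of methyl groups, had intensities of 5303 and 5178 in the mutants and 5868, 3780 and 3864 in the wild types. Wild-type replicate 1 was the highest of the 5 arrays, and the log2 difference of 0.25 was within the spread between arrays (adjusted p = 0.613 by limma).

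*Sqle*, squalene epoxidase, which opens the sterol-specific part of the pathway, had intensities of 2025 and 2345 in the mutants and 2035, 1727 and 1709 in the wild types. Wild-type replicate 1 was again level with *Clock* mutant replicate 1, so the groups overlapped. For *Sqle* the log2 difference was 0.26 (SE 0.11, unadjusted p = 0.0409, adjusted p = 0.447 by limma). *Lss*, which closes the ring of lanosterol, and *Cyp51*, which removes its first methyl group, had differences of -0.02 and -0.07, so that this stretch of the pathway held differences of both signs.

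**Figure D2:**
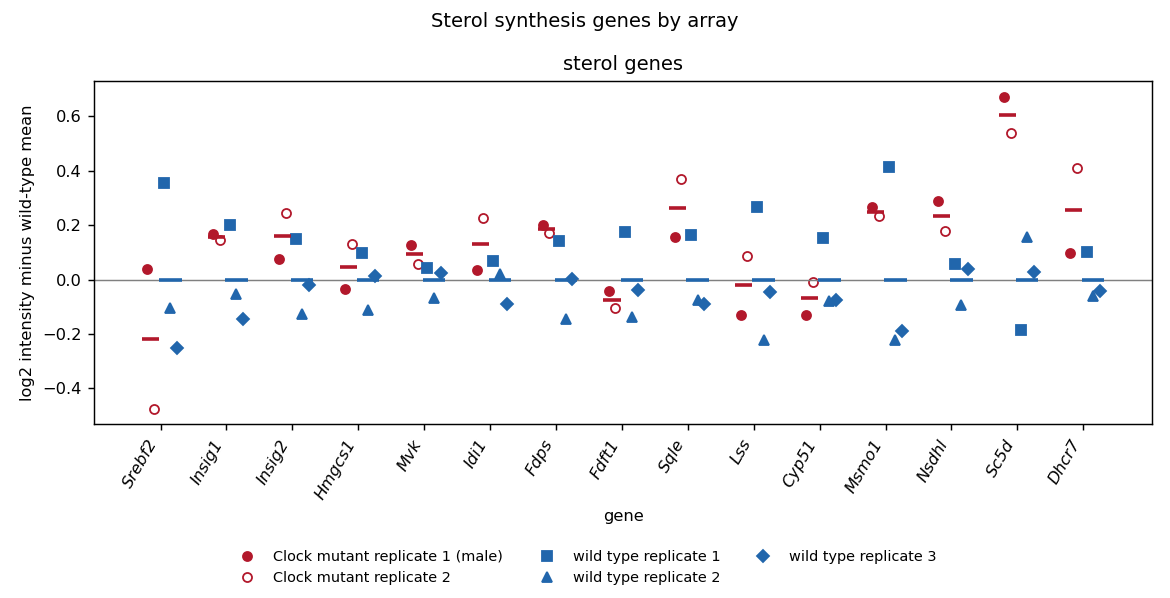
MAS5 intensity of the sterol genes relative to the wild-type mean of each gene, on a log2 axis, for each of the 2 *Clock* mutant and 3 wild-type arrays, with short bars at the group means. For *Sc5d* both mutants lie apart from the wild types, and for *Sqle*, *Dhcr7* and *Msmo1* wild-type replicate 1 lies among the mutants or above them.

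For the member enzymes up to squalene, log2 differences ran from -0.07 to 0.19. *Fdps*, farnesyl diphosphate synthase, had intensities of 3069 and 3011 in the mutants and 2950, 2419 and 2675 in the wild types, which did not overlap (log2 difference 0.19, adjusted p = 0.522 by limma). *Mvk*, mevalonate kinase, was also apart in the groups with a log2 difference of 0.09. *Idi1*, the isomerase that makes the building block of FDPS, had 0.13, and *Hmgcs1*, which commits acetyl-CoA to the pathway, had 0.05 with a 95% interval of -0.15 to 0.24. *Fdft1*, squalene synthase at the branch to sterols, had intensities of 1594 and 1529.6 in the mutants and 1853, 1495 and 1602 in the wild types. Both mutants fell within the wild-type range, and its log2 difference was -0.07 (SE 0.107, unadjusted p = 0.510, adjusted p = 0.836 by limma).

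Among the regulators, *Srebf2*, which encodes the SREBP that drives sterol genes, had intensities of 1292 and 905.1 in the mutants and 1605, 1171 and 1057 in the wild types. Its arrays varied more than those of most sterol genes, and the groups overlapped. The log2 difference was -0.22 (SE 0.195, 95% interval -0.66 to 0.22, unadjusted p = 0.294, adjusted p = 0.713 by limma). *Insig1* and *Insig2* encode proteins that hold SREBP in the endoplasmic reticulum when sterols are plentiful. Their log2 differences were both 0.16, with adjusted p of 0.702 and 0.574 by limma, and 2 further probe sets of *Insig2* had -0.12 and -0.19.

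CLOCK and BMAL1 bind the E-box, and SREBP binds the sterol regulatory element, so the start regions of the members were searched for their letters. RefSeq windows on assembly GRCm38.p6, from 250 bases before to 50 after a transcription start, were at hand for 26 of the 35 genes (33 windows). The E-box CACGTG, which reads the same on both strands, stood in 5 of 33 windows, of *Sc5d*, *Dhcr7*, *Insig1*, *Elovl4* and *Elovl5*, and in 7.15% of all 32851 windows. The related box CACGTT on either strand stood in 4 of 33 windows, of *Acacb*, *Elovl4*, *Elovl6* and *Far2*, and in 4.68% of all. The sterol element TCACNCCAC on either strand stood in 1 of 33, of *Hmgcs1*, and in 1.24% of all. No 2 matches overlapped in these windows. A match describes letters and not binding. The windows below are those of the sterol genes with the largest difference (*Sc5d*) and with an E-box or sterol element, with the motif in capitals: *Sc5d* at chr9:42264251-42264550 on the minus strand, the second window of *Dhcr7* at chr7:143823149-143823448, *Insig1* at chr5:28071162-28071461 and *Hmgcs1* at chr13:119690101-119690400, all 3 on the plus strand.
Sc5d: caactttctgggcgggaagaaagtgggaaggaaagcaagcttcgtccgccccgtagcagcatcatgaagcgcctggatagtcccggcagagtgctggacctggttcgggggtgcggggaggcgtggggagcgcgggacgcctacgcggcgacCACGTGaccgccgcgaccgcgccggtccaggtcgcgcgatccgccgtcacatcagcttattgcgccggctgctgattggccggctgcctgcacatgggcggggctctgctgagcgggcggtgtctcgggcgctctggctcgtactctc
Dhcr7: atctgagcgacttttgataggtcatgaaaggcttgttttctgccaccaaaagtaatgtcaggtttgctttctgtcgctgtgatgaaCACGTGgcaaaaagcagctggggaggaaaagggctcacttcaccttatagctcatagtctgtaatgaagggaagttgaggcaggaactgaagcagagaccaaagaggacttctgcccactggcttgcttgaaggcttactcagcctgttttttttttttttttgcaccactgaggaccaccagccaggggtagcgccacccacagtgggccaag
Insig1: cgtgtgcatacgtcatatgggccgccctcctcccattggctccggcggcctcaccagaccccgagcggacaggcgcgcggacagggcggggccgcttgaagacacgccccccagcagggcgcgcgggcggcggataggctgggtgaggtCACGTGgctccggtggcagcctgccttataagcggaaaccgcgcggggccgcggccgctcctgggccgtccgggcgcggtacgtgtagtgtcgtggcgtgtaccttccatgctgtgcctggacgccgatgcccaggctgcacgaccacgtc
Hmgcs1: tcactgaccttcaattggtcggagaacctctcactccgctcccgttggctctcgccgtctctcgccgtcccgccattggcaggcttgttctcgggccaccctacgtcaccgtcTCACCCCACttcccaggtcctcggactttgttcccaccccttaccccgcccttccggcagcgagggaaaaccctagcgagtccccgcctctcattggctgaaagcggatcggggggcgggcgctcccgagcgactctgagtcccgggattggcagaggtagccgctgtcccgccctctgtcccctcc

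Among the genes with an E-box, the log2 differences ran from 0.61 for *Sc5d* through 0.25 for *Dhcr7* and 0.16 for *Insig1* to -0.08 for *Elovl5* and -0.13 for *Elovl4*. The box was thus found in genes on both sides of 0. In *Sc5d* it lay 98 bases before the start and in the printed window of *Dhcr7* 164 bases before it. The other windows of *Dhcr7* held no E-box.

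The fatty acid genes held *Elovl6* and *Srebf1* as their members at an unadjusted p under 0.05. Of 13 fatty acid genes, 9 had a positive and 4 a negative difference, with a median of 0.14. The median of the 13 genes was 0.18 in *Clock* mutant replicate 1 and 0.0021 in replicate 2, relative to the wild-type mean of each gene, and between -0.05 and 0.02 in the wild types. Without mutant replicate 1 the median difference was 0.0021, and with a mean over each gene's probe sets it was -0.04, so its size rests on that array and its sign on the choice of probe set.

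*Elovl6* extends palmitate toward stearate. Its intensities were 12242 and 13197 in the mutants and 10242, 12032 and 10186 in wild-type replicates 1, 2 and 3. Both mutants were above every wild type, with wild-type replicate 2 close below them. The log2 difference was 0.24 (SE 0.0874, 95% interval 0.04 to 0.43, unadjusted p = 0.024, adjusted p = 0.395 by limma). The other probe sets of *Elovl6* had the same sign: the second had a log2 difference of 0.30, and the dimmest had intensities of 641.7 and 616.9 in the mutants and 394.5, 233.7 and 244.2 in the wild types. That probe set had a log2 difference of 1.16 (SE 0.218, unadjusted p = 0.00048, adjusted p = 0.146 by limma), the groups being well apart.

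*Srebf1* encodes the SREBP that drives fatty acid synthesis. Its intensities were 2142 and 2089 in the mutants and 1930, 1788 and 1747 in the wild types. The mutants lay above every wild type by more than they differed from each other. This gave a log2 difference of 0.22 (SE 0.086, 95% interval 0.02 to 0.41, unadjusted p = 0.0324, adjusted p = 0.425 by limma). *Fasn* and *Scd1*, genes that SREBP acts on, had differences near 0 on their brightest probe sets. *Elovl6*, *Acaca* and *Acly*, of the same synthesis pathway, had 0.24, 0.28 and 0.14, and 4 of the 13 fatty acid genes were negative. *Fasn*, fatty acid synthase, had intensities of 9604 and 8275 in the mutants and 9242, 8319 and 9776 in the wild types. The log2 difference of *Fasn* was -0.03 with a 95% interval of -0.24 to 0.18. *Scd1*, the main desaturase of skin, had 18371 and 17808 in the mutants and 18189, 18214 and 19737 in the wild types, a log2 difference of -0.05 with a 95% interval of -0.20 to 0.10. A dimmer probe set of *Scd1* had -0.44, with both mutants below every wild type.

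*Acaca*, acetyl-CoA carboxylase, had the largest positive difference of the fatty acid genes. Its intensities were 2415 and 1518 in the mutants and 1681, 1388 and 1689 in the wild types. *Clock* mutant replicate 1, the male, was high alone, and replicate 2 lay within the wild-type range. The log2 difference was 0.28 (SE 0.179, 95% interval -0.13 to 0.68, unadjusted p = 0.155, adjusted p = 0.596 by limma), and without that array it was -0.06. *Acacb*, the carboxylase whose product also restrains fatty acid oxidation, had intensities of 2590 and 2384 in the mutants and 2302, 2160 and 2223 in the wild types. The groups did not overlap, with a log2 difference of 0.16 (adjusted p = 0.528 by limma). *Acly*, ATP citrate lyase, had a log2 difference of 0.14, and *Scd2*, another desaturase, had 0.15.

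*Fads2* and *Fads1*, the desaturases of polyunsaturated fatty acids, had log2 differences of 0.25 and 0.02. *Fads2* was dim, with intensities of 163.1 and 140.8 in the mutants and 126.9, 169.8 and 95.5 in the wild types. The groups overlapped, and its SE of 0.26 was the largest of the 13 (unadjusted p = 0.357, adjusted p = 0.752 by limma).

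The other elongases on the fatty acid list had log2 differences from -0.13 to 0.03. *Elovl4*, which makes the ultralong fatty acids of barrier ceramides, had intensities of 8308 and 10016 in the mutants and 9771, 10639.5 and 9623 in the wild types. Mutant replicate 1 was low and mutant replicate 2 was within the wild-type range (log2 difference -0.13, SE 0.0911, unadjusted p = 0.179, adjusted p = 0.619 by limma). *Elovl5*, an elongase of polyunsaturated fatty acids, had intensities of 12075 and 14218 in the mutants and 13952, 13675 and 13848 in the wild types. Mutant replicate 1 was the lowest and mutant replicate 2 the highest of the 5 arrays. Its log2 difference was -0.08 (SE 0.0783, unadjusted p = 0.349, adjusted p = 0.748 by limma). *Elovl1*, another elongase of long fatty acids, had 0.03.

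**Figure D3:**
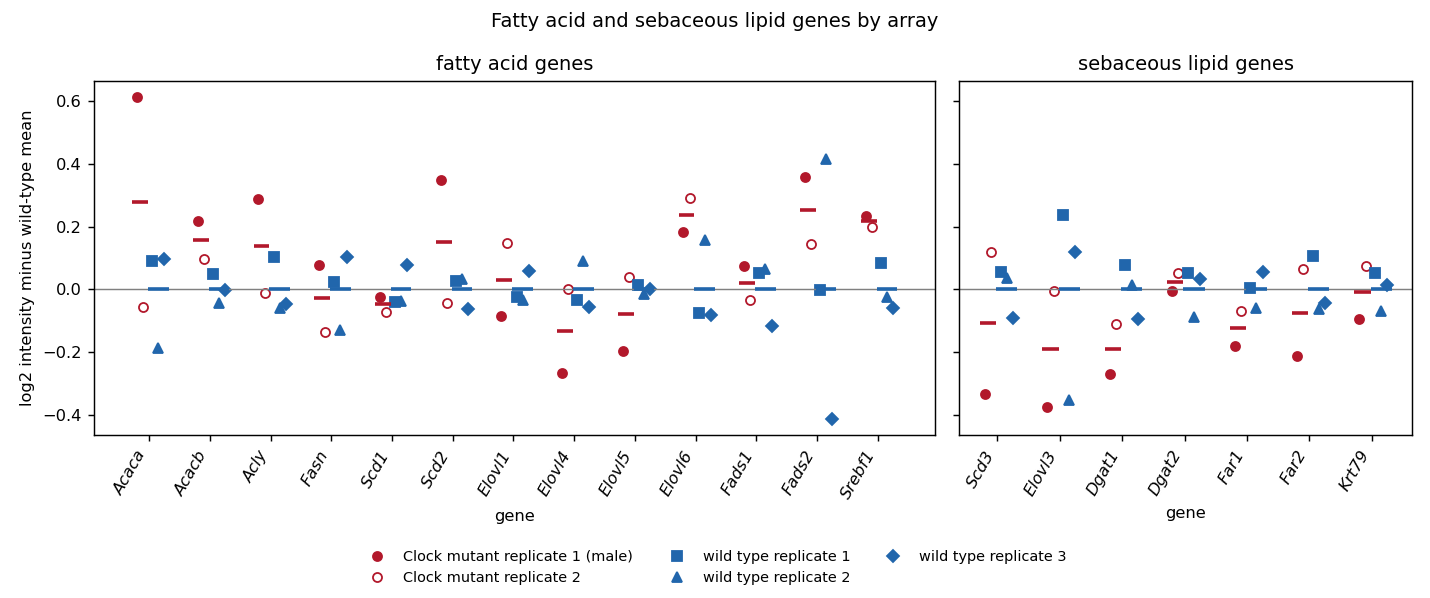
MAS5 intensity of the fatty acid and sebaceous lipid genes relative to the wild-type mean of each gene, on a log2 axis, for each of the 2 *Clock* mutant and 3 wild-type arrays, with short bars at the group means. *Clock* mutant replicate 1 stands high for *Acaca* and low for *Scd3*, and both mutants are above every wild type for *Elovl6* and *Srebf1*.

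The sebaceous lipid genes had 0 of 7 at an unadjusted p under 0.05. *Dgat2* had the single positive difference, and the other 6 were negative, with a median of -0.11. The median of the 7 genes was -0.21 in *Clock* mutant replicate 1 and 0.05 in replicate 2, beside -0.06 to 0.06 in the wild types. Without replicate 1 the median difference was 0.05, so its sign rests on that array.

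*Dgat1*, which adds the last fatty acid to triglycerides, had intensities of 2715 and 3034 in the mutants and 3460.1, 3309.8 and 3069 in wild-type replicates 1, 2 and 3. Both mutants were below every wild type, with wild-type replicate 3 close above them. A log2 difference of -0.19 resulted (SE 0.0888, 95% interval -0.39 to 0.01, unadjusted p = 0.0599, adjusted p = 0.477 by limma). *Dgat2*, the other enzyme of that step, had intensities of 7875 and 8209 in the mutants and 8207, 7439 and 8100.0 in the wild types. The groups overlapped, and the log2 difference was 0.02 (SE 0.0726, unadjusted p = 0.750, adjusted p = 0.928 by limma).

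*Elovl3*, an elongase of sebocytes and hair follicles, had intensities of 1115 and 1439 in the mutants and 1701, 1131 and 1568 in the wild types. The lowest array was a mutant and the next a wild type, and the spread within each group was wide. The log2 difference was -0.19 (SE 0.177, 95% interval -0.59 to 0.21, unadjusted p = 0.311, adjusted p = 0.726 by limma). *Scd3*, the sebocyte desaturase, had 3793 and 5182 in the mutants, at the bottom and the top of the 5 arrays, and a log2 difference of -0.11. The *Scd* genes are close copies, and their probe sets may share signal.

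*Far1* and *Far2* make the fatty alcohols of wax esters. *Far1* had intensities of 691.9 and 747.4 in the mutants and 785.4, 752.4 and 813.8 in the wild types, which did not overlap, with a log2 difference of -0.12 (adjusted p = 0.693 by limma). *Far2* had -0.07. *Krt79*, a keratin of the sebaceous duct, had intensities of 10947 and 12294 in the mutants and 12118, 11132 and 11800 in the wild types. Its log2 difference was -0.01 with a 95% interval of -0.18 to 0.16.

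**Figure D4:**
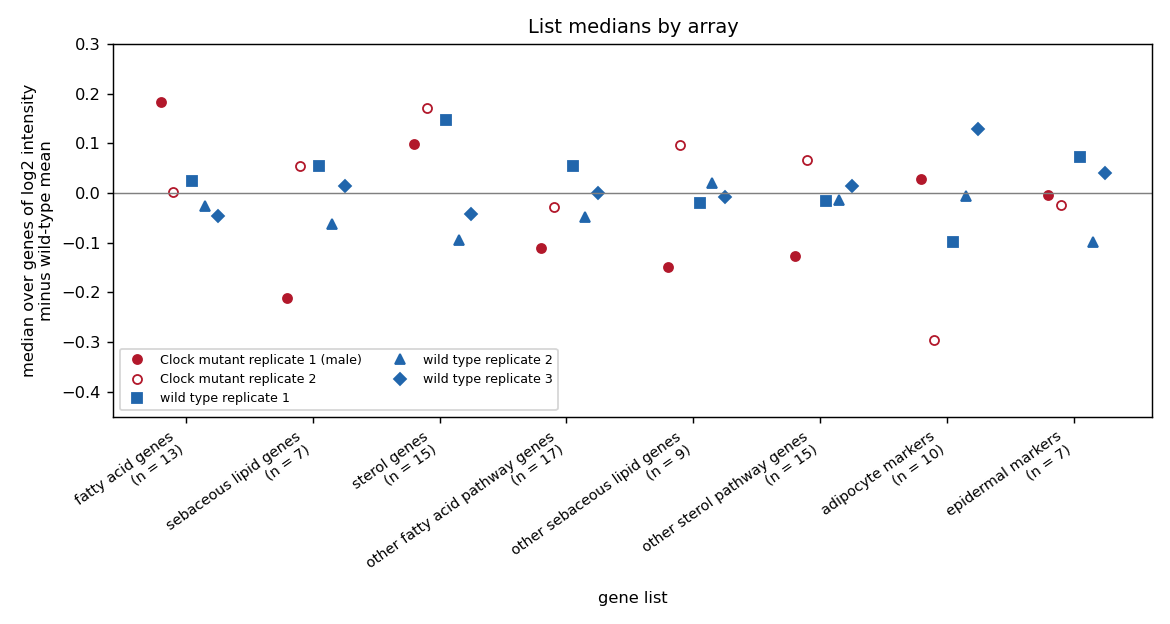
Median over the genes of each list of the log2 intensity relative to the wild-type mean of each gene, for each of the 5 arrays, with other pathway genes and adipocyte and epidermal markers beside the members (n is the number of genes). *Clock* mutant replicate 1 is highest for the fatty acid genes (0.18) and lowest for the sebaceous lipid genes (-0.21), and wild-type replicate 1 lies between the mutants for the sterol genes.

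The other genes of these pathways were read in the same way. Of 19 other fatty acid pathway genes, 17 were tested, with 7 positive differences and a median of -0.01. At an unadjusted p under 0.05, 3 were lower and 0 higher, beside 4.78% and 5.24% of all genes. *Thrsp*, a regulator of lipogenesis, had intensities of 5545 and 3864 in the mutants and 6709, 5880.0 and 6415 in the wild types, a log2 difference of -0.45 (adjusted p = 0.334 by limma). *Acsl3*, which activates long fatty acids, had -0.49 (adjusted p = 0.353), and *Slc25a1*, the carrier that exports citrate for synthesis, had -0.23 (adjusted p = 0.401), both by limma. In all 3 genes both mutants were below every wild type, as they were in 12.3% of all genes.

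Of 21 other sterol pathway genes, 15 were tested, with 6 positive differences and a median of -0.06. *Abca1*, which exports cholesterol from cells, had intensities of 5042 and 5182 in the mutants and 5684, 6607 and 6371 in the wild types, a log2 difference of -0.28 (adjusted p = 0.316 by limma). *Nr1h3*, which encodes the sterol-sensing receptor LXR alpha that activates *Abca1*, had 207.6 and 188.0 in the mutants and 253.7, 263.1 and 280.7 in the wild types, a log2 difference of -0.43 (adjusted p = 0.383 by limma). Both mutants lay below every wild type for either gene, beside 12.3% of all genes. These 2 were the members of that list at an unadjusted p under 0.05, beside 4.78% of all genes that were lower at that level. Of 14 other sebaceous lipid genes, 9 were tested, 3 were positive, the median was -0.06 and 0 had an unadjusted p under 0.05. *Acsbg1*, an acyl-CoA synthetase (log2 difference -0.17), and *Lrig1*, a marker of stem cells near the sebaceous gland (0.11), had the smallest p, with adjusted p of 0.571 and 0.699 by limma.

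Cell markers varied between the arrays of a group, and some were apart between the groups. The 8 tested markers of the hair root sheath and shaft, among 10 measured, were all positive with a median of 1.88. Their median level relative to the wild-type means was 2.91 and 0.98 in mutant replicates 1 and 2. Their summed intensity was 7970 in *Clock* mutant replicate 1 and 1563 in replicate 2, against 614 to 1587 in the wild types, and none was at 0. The hair marker with the smallest p was *Krt28* (1.54), and the others were *Krt25* (3.02), *Krt27*, *Krt31*, *Krt71*, *Krt72*, *Krt73* and *Tchh*. Of the 8, *Krt28*, *Krt31*, *Krt73* and *Tchh* were higher in both mutants than in every wild type, beside 15.7% of all genes. Replicate 1 is the array on which the fatty acid median was highest and the sebaceous median lowest. Wild-type replicate 1, at 0.69, was the highest of the wild types for the hair markers, as it was for the sterol genes, so that the same 3 arrays were above 0 for both lists. This was not particular to the sterol genes. The same arrays were above 0 for the fatty acid genes and for all 35 members together, though not for the sebaceous lipid genes. The part of these hair cells in those medians was not tested. The 10 adipocyte markers had a median of -0.14, 9 were negative, and 3 had an unadjusted p under 0.05: *Cidec* (-0.36), *Cd36* (-0.23) and *Fabp4* (-0.18). Of all genes, 4.78% were lower at that level. These 3 were below every wild type in both mutants, beside 12.3% of all genes. The summed intensity of the 10 markers was 71372 and 60889 in the mutants and 68523 to 77681 in the wild types, and none was at 0. Their part in the difference of *Thrsp*, which was lowest on the same mutant array, was not tested. The 7 epidermal markers had a median of -0.01, with *Krt1* at 0.31 and *Flg* at -0.26.

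Probe sets of the same gene often disagreed. The 35 genes had 72 tested probe sets, and of 24 genes with several, 10 had one sign throughout and 14 had both. Over all 72, 7 were higher and 4 lower at an unadjusted p under 0.05, beside 4.09% and 6.71% of all tested probe sets. Of the 37 beyond the brightest, 0 passed the adjusted threshold by limma, beside 0.0888% of all. At an unadjusted p under 0.05 there were 5 of the 37, 1 higher and 4 lower, beside the same 4.09% and 6.71%. Most of these 5 were thus lower, unlike the brightest probe sets at that level. *Far1* had 5 probe sets, all negative, from -0.04 to -0.53, and the one with the largest difference had intensities of 394.0 and 493.5 in the mutants and 707.7, 617.3 and 596.3 in the wild types (unadjusted p = 0.00424, adjusted p = 0.277 by limma). Both mutants lay below every wild type there, as on its brightest probe set. *Scd1* had a dimmer probe set with 2534 and 3084 in the mutants and 4294, 3776 and 3376 in the wild types, a log2 difference of -0.44 (adjusted p = 0.299 by limma), while its brightest had -0.05. All 3 tested probe sets of *Elovl6* and of *Acly* were positive. *Scd2*, *Sc5d*, *Insig2*, *Idi1* and *Hmgcs1* were among the genes with probe sets on both sides of 0.

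**Figure D5:**
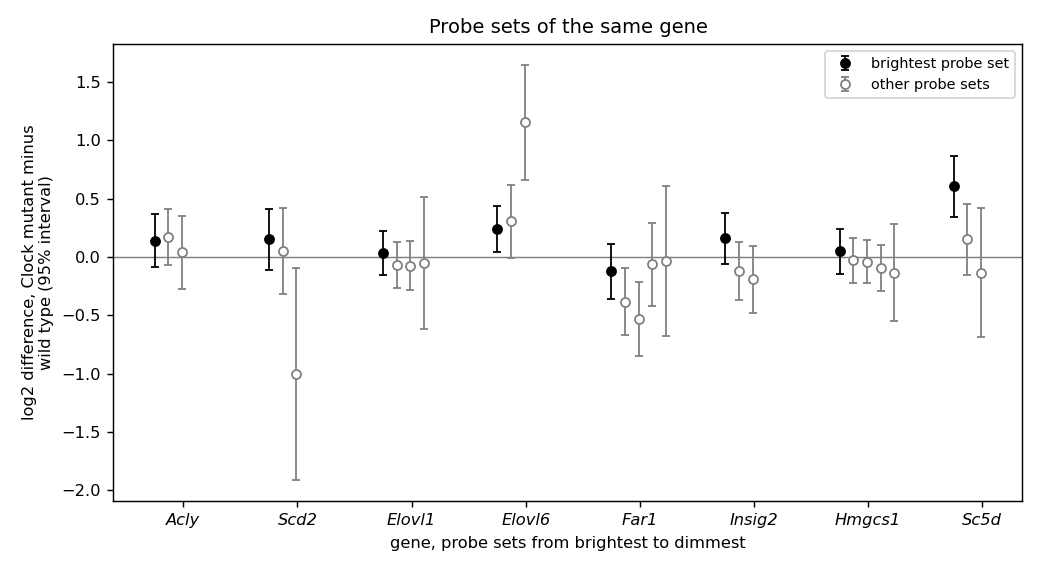
Log2 difference, *Clock* mutant (2 arrays) minus wild type (3 arrays), of each tested probe set of the 8 genes with at least 3 of them, ordered from brightest to dimmest; points are limma estimates and bars are 95% confidence intervals. All 3 probe sets of *Elovl6* lie above 0 and all 5 of *Far1* below 0, while *Sc5d* runs from 0.61 to -0.14.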

How the data were processed

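Arrays of P23 dorsal skin came from 2 *Clock* mutants and 3 wild-type littermates. The values are signal intensities that the authors deposited, 1 per probe set and array, made from 11 µg total RNA with MAS5 per the labels, whose version was not given in the sources used here. The MAS5 method takes off mismatch signal and multiplies every array by a factor of its own, and each array had a 2% trimmed mean of 500.0. Detection calls were not used here. Values under 1 (2441) were set to 1 before log2. Dim probe sets were left out (mean under the 40th percentile, 56.7), which left 27022. Groups were tested two-sided in R 4.3.3 with lmFit and eBayes of limma 3.58.1, with an intensity trend and a prior of 6.04 degrees of freedom, with Benjamini-Hochberg adjustment, and the step was tested on simulated data. No test is stated for the *Clock* arrays in the study's methods, and p-values measure the spread between mice. Symbols came from the platform annotation (34945 probe sets with 1 symbol, 932 with several, 9160 unnamed here).

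Each gene was read from its brightest probe set with 1 symbol, *Sc4mol* being the array's name for *Msmo1*, and probe sets of 1 gene were given side by side where they disagreed. Probe sets with the suffix s or x (the brightest of *Dgat1*, *Far1*, *Lss* and *Elovl1*) can match more than 1 transcript. Every member is named, and those at an unadjusted p under 0.05, or among the largest differences of either sign in their group, are given in every array. Of the other lists, genes at an unadjusted p under 0.05 and those with the smallest p are named for the pathway lists, and for the marker lists those with the smallest p. The members and lists were chosen with earlier results of these data known. Alternatives to the scaling were median centring and quantile normalization. Alternatives to the filter were the 60th percentile and none. The others were log2 of the intensity plus 32, the mean over probe sets, no trend, a regularised Cyber-T-like test (window 101, weight 10), the shared replicate number as a block, and each array left out in turn.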

Additional observations from a re-analysis of the deposited data

How the results depend on the processing

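No member passed the adjusted threshold under any of the 14 alternatives, and the adjusted p of *Sc5d* ran from 0.0834 to 0.588 over them. The count of members at an unadjusted p under 0.05 was 6, all higher, and 1 without an intensity trend, 3 by the test in the style of Cyber-T and 2 to 9 when arrays were left out (3 without wild-type replicate 2 and 2 without wild-type replicate 3). The replicate number as a block gave 5, of which 3 were higher (*Acaca*, *Elovl6* and *Sc5d*) and 2 lower (*Dgat1* and *Srebf2*), without *Sqle*, *Nsdhl*, *Dhcr7* and *Srebf1*. The mean of probe sets gave 5 higher and 4 lower, *Sc5d* not among them, and leaving out *Clock* mutant replicate 2 also gave 5 and 4. Quantile normalization gave 3 and 1 (*Dgat1*), and *Elovl3* without wild-type replicate 2 and *Dgat1* without wild-type replicate 3 were lower. The deviations of samples with the same number had correlations of 0.008 and 0.099 over 2 pairs. With 2 mutants, the mismatched pairs hold the same values with the sign turned. These correlations therefore cannot show whether a litter or batch was shared. Over all tested probe sets the block raised the calls at the adjusted threshold from 24 to 106. The median of the fatty acid genes (0.14) was 0.23 under median centring, -0.039 with the mean of probe sets and 0.0021 to 0.18 when arrays were left out. That of the sebaceous lipid genes (-0.11) ran from -0.21 to 0.054, the latter without *Clock* mutant replicate 1, and that of the sterol genes (0.16) from 0.098 to 0.23 when arrays were left out, with 0.24 under median centring and 0.081 with the mean of probe sets.

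Of the 35 members, 14 kept their sign throughout and 21 did not (47 of 489 values). Median centring turned *Fasn* (0.059), *Scd1* (0.040), *Elovl5* (0.011), *Far2* (0.014), *Krt79* (0.079), *Fdft1* (0.014), *Lss* (0.066) and *Cyp51* (0.019), and quantile normalization turned *Lss* (0.027). The mean of probe sets, which takes in probe sets under the filter, turned *Acly* (-0.65), *Scd2* (-0.27), *Elovl1* (-0.041), *Fads1* (-0.19), *Scd3* (0.0027), *Dgat2* (-0.057), *Far2* (0.11), *Insig2* (-0.051), *Hmgcs1* (-0.050), *Idi1* (-0.071), *Fdps* (-0.30), *Lss* (0.14) and *Cyp51* (0.081). The replicate block turned *Fasn* (0.024) and *Fads1* (-0.038). Leaving out arrays spanned 0 for *Acaca* (-0.057 to 0.61), *Acly* (-0.011 to 0.29), *Fasn* (-0.14 to 0.079), *Scd2* (-0.044 to 0.35), *Elovl1* (-0.084 to 0.15), *Elovl4* (-0.27 to 0.0021), *Elovl5* (-0.20 to 0.041), *Fads1* (-0.038 to 0.073), *Scd3* (-0.33 to 0.12), *Dgat2* (-0.020 to 0.054), *Far2* (-0.21 to 0.063), *Krt79* (-0.093 to 0.074), *Srebf2* (-0.47 to 0.039), *Hmgcs1* (-0.034 to 0.13), *Fdft1* (-0.14 to 0.013), *Lss* (-0.13 to 0.11) and *Cyp51* (-0.13 to 0.0078). The causes were not tested. *Fads2* was not tested at the 60th percentile.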
